A study of Mus musculus with 30 samples.

Results

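The cadherins and the non-clustered protocadherins are the genes described here, 34 of the 38720 gene symbols in the deposited tables. They are the genes whose symbol is Cdh or Pcdh followed by a number alone, which gave 23 cadherins and 11 protocadherins. This leaves out the clustered protocadherins, whose symbols carry a letter. The non-clustered Pcdh11x is left out as well because of its letter, and is described below with the cadherin-related genes. RNA was measured at postnatal day 0 (P0) in retinas of newborn mouse pups, split with magnetic beads against CD90, the product of Thy1, into retinal ganglion cells (RGC) and the pooled remaining cells (non-RGC). The groups analysed are 3 libraries of WT RGC from C57BL/6 mice, 3 of mutant RGC and 3 of mutant non-RGC cells. The tables name the mutant only as mut. The labels hold both Math5Cre; Ezh2f/f and Math5Cre; Ezh2f/fG9af/+ mice, so all mutant libraries carry Math5Cre and floxed Ezh2, the histone methyltransferase of a Polycomb complex, and whether they also carry 1 floxed G9a (Ehmt2) allele cannot be told apart. Math5 (Atoh7) is active in the lineage that gives rise to ganglion cells, and the Cre is driven in cells of that lineage. Which cells of either fraction carried the deletion, and how many, was not tested here. No analysed group carries the Cre without floxed Ezh2. WT non-RGC libraries and the chromatin samples of the series were not analysed here.

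Classical cadherins are calcium-dependent adhesion proteins that bind like molecules on neighbouring cells and join the actin cytoskeleton through catenins. Class I members hold epithelia and the early neural tissue together, while class II members are expressed in combinations that differ between groups of neurons and have been used to tell subsets of retinal neurons apart. Non-clustered protocadherins lack the catenin-binding tail. Those of the delta-1 group carry a short motif that binds a protein phosphatase, and those of the delta-2 group can recruit the WAVE complex, which drives actin branching in growing axons.

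The 9 libraries held between 10559040 and 12269290 reads assigned to genes, in which 19865 to 21661 genes were detected. Levels are normalised counts, that is reads divided by a size factor shared over the 9 libraries. They are not divided by transcript length, so levels are not compared between genes. Fold changes, tests and overlaps are from the 6 libraries of a comparison on their own scale. Since no library carries a sample number, libraries 1, 2 and 3 of a group are in order of decreasing size factor. The labels do not say that they came from separate animals, so p-values measure only the spread between these libraries. The summed level of 20 ganglion cell markers was 44567 to 52351 in the WT RGC libraries, 21009 to 34353 in the mutant RGC and 5637 to 12289 in the non-RGC. The bead fraction therefore held ganglion cell RNA in both genotypes, and none of the 20 markers was at 0 throughout. The sum of 21 proliferation genes was 17262 and 18994 in WT libraries 1 and 2, 29871 in WT library 3, 38939 to 40305 in the mutant RGC and 46677 to 48179 in the non-RGC. WT library 3 thus stood apart from the other WT libraries, towards the mutant RGC. Mutant RGC library 1 stood apart as well, with the lowest ganglion cell sum of its group and 7689 for 12 microglia markers, against 2300 and 2044 in mutant RGC libraries 2 and 3 and 53.9 to 69.7 in the non-RGC. Ezh2 had 1154, 1169 and 1576 normalised counts in WT RGC, 1962, 1863 and 1811 in mutant RGC and 2233, 2159 and 2331 in non-RGC cells, so it was not lower in the libraries labelled mutant. Ehmt2 had 3743, 3603 and 3857 in WT RGC, 2364, 2799 and 2962 in mutant RGC and 2985, 3248 and 2747 in non-RGC. Its mutant RGC values were all below its WT values, and the cause was not tested. Reads are counted over the whole gene, which also counts transcripts that lack the floxed exons, so neither level checks the deletion or the label. In such bulk fractions fewer cells of a type and less RNA per cell cannot be told apart.

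Between genotypes, 1 member rose and 4 fell in mutant RGC. The neural class II cadherin Cdh20 rose, while Cdh10, Cdh24, Pcdh1 and Pcdh10 fell. Of the 34 members, Cdh17, Cdh19 and Cdh26 lay under the filter of a mean of 10 normalised counts, which left 31. The 1 that rose is 3.23% of these, beside 13.7% of all 15277 genes tested, and the 4 that fell are 12.9%, beside 12.3%. The share of falls was thus near that of all genes, and the share of rises was below it. Calls used limma on log2(normalised count + 1) at an adjusted p under 0.05. Of the 31 members, 24 had a log2 fold change below 0, and their median was -0.47, beside a median of 0.0043 over all genes tested. The libraries of the groups did not overlap for 11 members that were lower (35.5%, beside 24.9% of all genes) and for 2 that were higher, Cdh2 and Cdh20 (6.45%, beside 26.2%). All 5 calls were also made without WT library 3. In that fit 15 members fell, beside 20.2% of all genes, and 3 rose, namely Cdh20, Cdh22 and Cdh2, beside 22.1% of all genes. Without WT library 1 or 2, or mutant RGC library 2 or 3, no member was called and at most 8 of all genes were called higher and at most 3 lower, by limma. Without mutant RGC library 1, limma called Cdh10 lower and no other member, beside 7.69% of all genes lower and 7.31% higher. With all 6 libraries, 14 members (45.2%) were lower and 2 (6.45%) higher at an unadjusted p under 0.05, beside 22.4% and 22.6% of all genes. In 1 fit over the 9 libraries, 12 members fell and 2 rose, beside 18.4% and 15.7% of all genes. Without WT library 3 and mutant RGC library 1 together, 19 members fell and 4 rose, beside 30.3% and 29.1% of all genes.

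Between the mutant fractions, 10 members were lower in the non-RGC than in the RGC libraries and 1 was higher. The lower ones were the class II cadherins Cdh6, Cdh10, Cdh12 and Cdh18, the membrane-anchored Cdh13, the delta-1 protocadherins Pcdh1, Pcdh7 and Pcdh9, and the delta-2 protocadherins Pcdh10 and Pcdh19. Cdh24 was the higher one. With Cdh17 and Cdh19 under the filter, 32 members were tested. The 10 lower are 31.2% of them, beside 12% of all 15178 genes tested, and the 1 higher is 3.12%, beside 5.07%. The share that was lower exceeded the background. Of the 32 members, 26 lay below 0, and their median log2 fold change was -0.48, beside 0.0128 over all genes. The fractions did not overlap for 12 members that were lower in non-RGC cells (37.5%, beside 20.6% of all genes) and for 2 that were higher, Cdh20 and Cdh24 (6.25%, beside 17.1%). Pcdh1, Pcdh19 and Cdh24 were called whichever 1 of the 6 libraries was left out, while the number of lower members ranged from 2 to 14. Over all genes, the lower calls in these fits ranged from 394 of 15173 to 2361 of 15065. Without mutant RGC library 1, 14 members were lower, beside 15.7% of all genes, with Cdh4, Cdh7, Cdh8 and Pcdh8 added. Pcdh15 then joined Cdh24 as higher, beside 6.4% of all genes. With both mutant RGC library 1 and non-RGC library 3 left out, 16 members were lower and 3 higher, beside 24.1% and 17.7% of all genes. At an unadjusted p under 0.05, 12 were lower and 2 higher in the fit of all 6 libraries, beside 19.2% and 12.6% of all genes. Both comparisons share the 3 mutant RGC libraries, so their fold changes are not independent and are given side by side below.

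**Figure D1:**
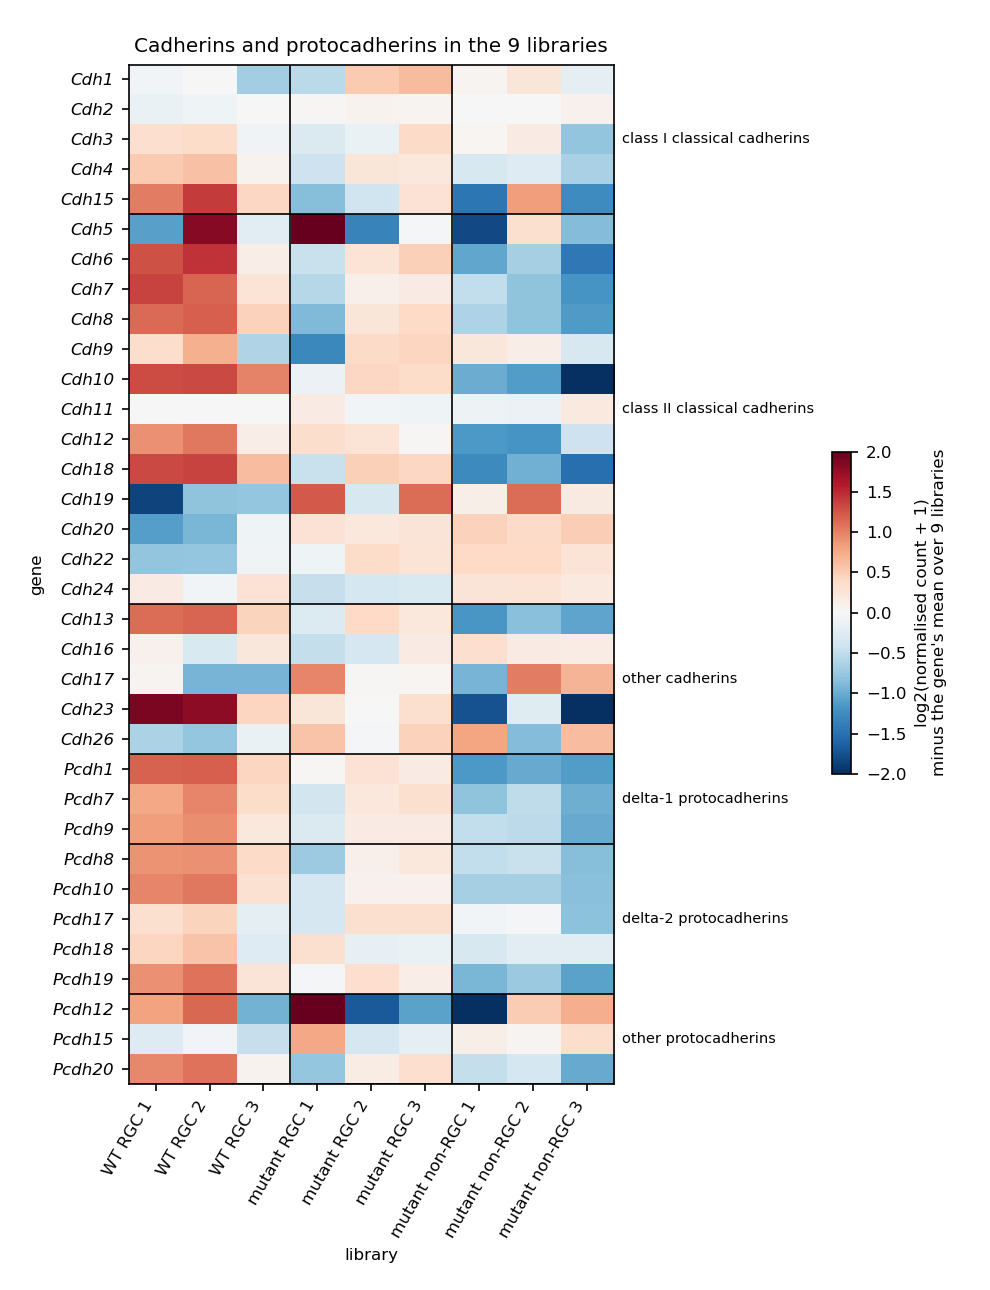
Colour shows log2(normalised count + 1) of each gene minus its mean over the 9 libraries, with genes as rows in order of class, libraries as columns, and the scale limited to -2 to 2. WT RGC libraries 1 and 2 are the darkest red for Cdh6, Cdh7, Cdh8, Cdh10, Cdh12, Cdh18 and the delta protocadherins. For these genes WT library 3 is paler or blue, and the mutant non-RGC libraries are mostly blue. Cdh20 and Cdh22 show the reverse order. The other class II members, Cdh5, Cdh9, Cdh11, Cdh19 and Cdh24, show neither order.

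**Figure D2:**
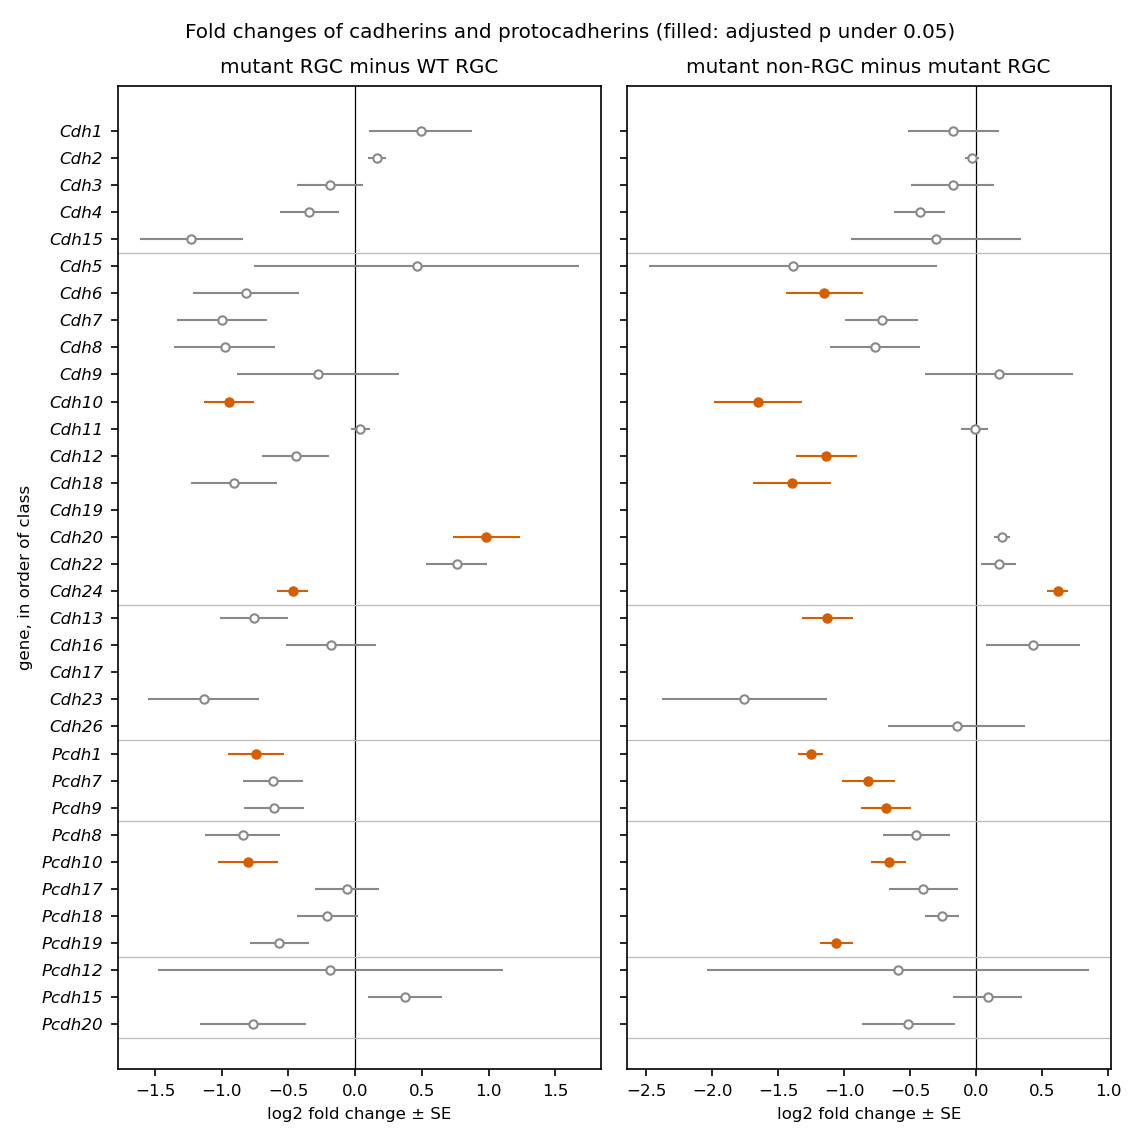
Points are log2 fold changes of each tested gene with their SE as bars (limma, 3 libraries a group), mutant RGC minus WT RGC on the left and mutant non-RGC minus mutant RGC on the right; filled points have an adjusted p under 0.05. On the left 5 points are filled, of which Cdh20 lies above 0, and on the right 11 are filled, of which Cdh24 lies above 0.

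Class I classical cadherins showed no call in either comparison. Cdh2 (chromosome 18, 16588877 to 16809246, GRCm38.p6 as are all coordinates), the N-cadherin that joins neuroepithelial cells, had 2973, 3067 and 3283 normalised counts in WT RGC libraries 1 to 3, 3324, 3443 and 3406 in mutant RGC and 3242, 3259 and 3469 in non-RGC. The 9 values lay close together, with the mutant RGC just above the WT libraries and within the range of the non-RGC. Its fold changes were small, at log2 0.16, SE 0.07, limma adjusted p = 0.115 between genotypes and log2 -0.03, SE 0.05, limma adjusted p = 0.745 between fractions. Without WT library 3 the former was 0.20 (limma adjusted p = 0.0403), and the latter became 0.036 under total-count scaling. Cdh4 (chromosome 2, 179442423 to 179899377), the R-cadherin first described in retina, had 3431, 3569 and 2513 in WT RGC, 1793, 2818 and 2761 in mutant RGC and 1901, 1985 and 1517 in non-RGC. WT libraries 1 and 2 were highest and the groups overlapped in both comparisons (log2 -0.35, SE 0.22, limma adjusted p = 0.265 between genotypes, and log2 -0.43, SE 0.20, limma adjusted p = 0.182 between fractions). Without mutant RGC library 1, Cdh4 was called lower in non-RGC (limma adjusted p = 0.0106).

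The remaining class I members were at low levels. Cdh15, the M-cadherin of muscle precursors, had a mean of 72.6 ± 23.8 (SD, n = 3) in WT RGC, 30.1 ± 12.5 in mutant RGC and 30.6 ± 29.7 in non-RGC. Every mutant RGC library lay below every WT library, but the difference missed the threshold (log2 -1.23, SE 0.39, limma adjusted p = 0.0556). The authors' deposited table gives an adjusted p of 0.0452 for it, and without WT library 3 the limma adjusted p was 0.0313. Cdh1, the E-cadherin of epithelia, had 47.6 ± 11.9 in WT RGC, 68.3 ± 26.5 in mutant RGC and 57.3 ± 8.77 in non-RGC, and Cdh3, the P-cadherin, had 87.8 ± 14.4, 75.8 ± 19.8 and 68.1 ± 21.9 in the same order. For both, the groups overlapped in each comparison.

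Of the class II cadherins, Cdh20 rose in mutant RGC and Cdh24 was lower there than in WT RGC and in non-RGC. Cdh22 had its lowest mean in WT RGC, without a call. Cdh20 (chromosome 1, 104768340 to 104995481), a class II cadherin of the developing nervous system, had 517, 591 and 1048 normalised counts in WT RGC, 1350.0, 1291 and 1327 in mutant RGC and 1534, 1448 and 1562 in non-RGC. WT library 3 lay nearer to the mutant libraries than to the other WT libraries, and the 3 groups did not overlap. Cdh20 rose between genotypes (log2 0.98, SE 0.25, limma adjusted p = 0.0360), by 1.29 without WT library 3. The step from mutant RGC to non-RGC was small (log2 0.19, SE 0.06, limma adjusted p = 0.0581). Cdh22 (chromosome 2, 165111501 to 165234924), another class II cadherin of the brain, had a mean of 462 ± 139.6 in WT RGC, 751 ± 119 in mutant RGC and 838 ± 43.1 in non-RGC. WT library 3, at 623, lay within the mutant RGC range. Its difference between genotypes just missed the threshold (log2 0.76, SE 0.23, limma adjusted p = 0.0511), with an adjusted p of 0.0482 in the authors' deposited table and a limma adjusted p of 0.00823 without WT library 3.

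Cdh24 (chromosome 14, 54631231 to 54642067), a class II cadherin that binds the same catenins as the others of its class, had 654, 562 and 717 in WT RGC, 427, 458 and 473 in mutant RGC and 702, 709.9 and 673 in non-RGC. The 3 mutant RGC libraries were below all other libraries, and WT and non-RGC libraries overlapped. Cdh24 fell between genotypes (log2 -0.47, SE 0.12, limma adjusted p = 0.0342) and was higher in non-RGC than in mutant RGC (log2 0.62, SE 0.08, limma adjusted p = 0.00760), a 1.53-fold difference. The former was -0.38 without WT library 3, and the authors' deposited table gives it an adjusted p of 0.0545. The highest limma adjusted p for the latter with 1 library left out was 0.0461.

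A second set of class II cadherins had the highest means in WT RGC and the lowest in non-RGC. Cdh6, Cdh9, Cdh10, Cdh12 and Cdh18 lie in this order on chromosome 15, between positions 13028699 and 23477491, and 4 of these 5 were lower in non-RGC. Cdh10 (18818869 to 19016206), expressed in subsets of central neurons, had 433, 437 and 349.5 normalised counts in WT RGC, 162, 234 and 227 in mutant RGC and 87.5, 80.4 and 38.1 in non-RGC. The 3 groups did not overlap, and non-RGC library 3 was the lowest of all. Cdh10 fell between genotypes (log2 -0.94, SE 0.19, limma adjusted p = 0.0258), by 1.05 without WT library 3, and was lower again in non-RGC (log2 -1.65, SE 0.34, limma adjusted p = 0.0187), a 3.15-fold difference. Its limma adjusted p between fractions rose to 0.0745, 0.0723 and 0.0532 without mutant RGC library 2, mutant RGC library 3 or non-RGC library 1.

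Cdh18 (22548898 to 23477491), a nervous system cadherin, had 312, 318 and 191 in WT RGC, 90.7, 174 and 166 in mutant RGC and 51.0, 63.0 and 43.2 in non-RGC. The groups did not overlap, with WT library 3 and mutant RGC library 1 the lowest of their groups. It was lower in non-RGC (log2 -1.40, SE 0.30, limma adjusted p = 0.0212), whereas the difference between genotypes did not pass (log2 -0.91, SE 0.32, limma adjusted p = 0.0750). The latter's adjusted p was 0.0375 without WT library 3. Cdh12 (20448878 to 21598421), also called brain cadherin, had 284, 315 and 164 in WT RGC, 192, 183 and 153 in mutant RGC and 67.3, 65.9 and 112 in non-RGC. WT library 3 lay within the mutant RGC range, and the non-RGC libraries were below all others. Cdh12 was lower in non-RGC (log2 -1.14, SE 0.23, limma adjusted p = 0.0190) and did not pass between genotypes (log2 -0.45, SE 0.25, limma adjusted p = 0.214), where it was -0.73 without WT library 3 (limma adjusted p = 0.0122). Cdh6 (13028699 to 13176407), which marks a subset of ganglion cells, had 586, 659.9 and 264 in WT RGC, 177, 291 and 336 in mutant RGC and 116, 151 and 88.4 in non-RGC. WT library 3 again lay within the mutant RGC range, and mutant RGC library 1 was nearest to the non-RGC. Cdh6 was lower in non-RGC (log2 -1.15, SE 0.29, limma adjusted p = 0.0366, with 0.0537 in the authors' deposited table) and did not pass between genotypes (log2 -0.82, SE 0.40, limma adjusted p = 0.157; without WT library 3 limma adjusted p = 0.0253). Between fractions, the Cdh6 call was made only without mutant RGC library 1 among the 6 fits with 1 library left out, the Cdh12 call also without non-RGC library 3, and the Cdh18 call also without non-RGC library 2, with highest limma adjusted p of 0.127, 0.0773 and 0.0863. The Cdh6 call was also lost with voom weights and in 1 fit over the 9 libraries. Cdh9, at 12.7 ± 5.73, 10.8 ± 6.13 and 10.8 ± 2.26 in WT RGC, mutant RGC and non-RGC, was close to the filter and overlapped between groups.

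Elsewhere in the genome, 2 class II cadherins known from subsets of retinal neurons had the same order of means without a call. Cdh7 (chromosome 1, 109982237 to 110145272) had 263 ± 92.1 in WT RGC, 125 ± 32.3 in mutant RGC and 75.2 ± 17.9 in non-RGC, and Cdh8 (chromosome 8, 99024471 to 99417666) had 495 ± 127, 256 ± 105 and 141 ± 24.8. For both, every mutant RGC library lay below every WT library (log2 -0.997, SE 0.34, limma adjusted p = 0.0664 for Cdh7, and log2 -0.98, SE 0.38, limma adjusted p = 0.0914 for Cdh8). Without WT library 3 the limma adjusted p was 0.0157 for Cdh7 and 0.0626 for Cdh8. Cdh11 (chromosome 8, 102632095 to 102785493), a cadherin of mesenchyme and of the developing brain, had 1988, 2027 and 2007 in WT RGC, 2254, 1926 and 1884 in mutant RGC and 1879, 1848 and 2303 in non-RGC. The 3 groups overlapped and their means were close, at 2008, 2022 and 2009.7 (log2 0.04, SE 0.07, limma adjusted p = 0.707 between genotypes, and log2 -0.01, SE 0.10, limma adjusted p = 0.951 between fractions). The signs of both differences changed with the library left out, and that between fractions also with the scaling. Cdh19, a marker of the Schwann cell lineage, was not tested. It had at most 7.4 normalised counts in any library.

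Both vascular members varied by library rather than by group. Cdh5 (chromosome 8, 104101613 to 104144504), the VE-cadherin of blood vessel endothelium, had 24.6, 190.5 and 46.0 in WT RGC, 484, 20.5 and 52.6 in mutant RGC and 14.4, 66.8 and 28.8 in non-RGC. Mutant RGC library 1 held by far the highest level, WT library 2 the next. Pcdh12, the vascular endothelial protocadherin, had 9.83, 12.6 and 2.19 in WT RGC, 52.7, 0.933 and 1.95 in mutant RGC and 0, 7.75 and 9.26 in non-RGC, with its highest values in the same 2 libraries. The endothelial receptor gene Tie1 had 33.4, 99.98 and 32.9, 257, 10.3 and 36.0 and 2.89, 41.6 and 24.7, and the endothelial adhesion gene Pecam1 64.9, 118 and 37.3, 197, 23.3 and 54.5 and 14.4, 36.8 and 17.5, in the same order of groups and libraries. Neither Cdh5 (log2 0.46, SE 1.22, limma adjusted p = 0.8004 between genotypes, and log2 -1.39, SE 1.09, limma adjusted p = 0.435 between fractions) nor Pcdh12 (log2 -0.19, SE 1.30, limma adjusted p = 0.925, and log2 -0.60, SE 1.45, limma adjusted p = 0.817) was called. Without mutant RGC library 1 the genotype difference of Cdh5 was -0.80, of the opposite sign. Of the other endothelial markers, Emcn, Esam, Erg, Sox17, Sox18 and Cd34 had the same 2 libraries highest in this order, and Tek in the reverse order. Flt1, Egfl7 and Mfsd2a were highest in mutant RGC library 1 without WT library 2 as the next. Cldn5 was highest in non-RGC library 2, at 487 against 177 in WT library 2, and Kdr in non-RGC library 3, at 6122. None of the 14 endothelial markers was at 0 throughout. Their sum ran from 3807 to 5258 in WT RGC, from 5420 to 8266 in mutant RGC and from 6118 to 6984 in non-RGC, of which Kdr, also expressed by retinal progenitors, made up most.

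**Figure D3:**
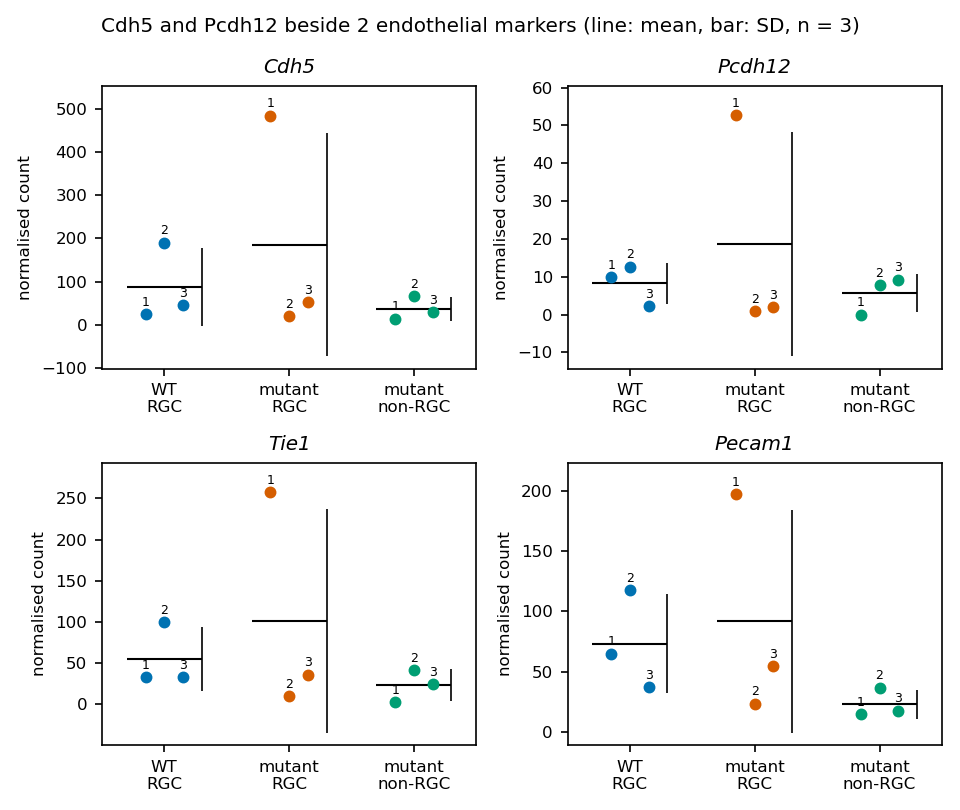
Normalised counts of Cdh5, Pcdh12 and the endothelial markers Tie1 and Pecam1 in the 9 libraries, each point a library with its number, the horizontal line the group mean and the bar the SD (n = 3). Mutant RGC library 1 is the highest point in all 4 panels, at 484 for Cdh5, and WT library 2 is the second highest. Not all of the 14 endothelial markers had this order, and Cldn5 and Kdr were highest in non-RGC libraries.

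Cadherins outside the classical classes included 1 called member. Cdh13 (chromosome 8, 118140017 to 119324929), the T-cadherin that is anchored to the membrane by a lipid and has no cytoplasmic tail, had 960.2, 990.4 and 602 normalised counts in WT RGC, 366, 582 and 514 in mutant RGC and 196, 249 and 214 in non-RGC. WT library 3 lay close to mutant RGC library 2, and the genotypes overlapped on the scale of their 6 libraries, while the non-RGC libraries were below all others. Cdh13 was lower in non-RGC (log2 -1.13, SE 0.19, limma adjusted p = 0.0123), a 2.19-fold difference, and did not pass between genotypes (log2 -0.76, SE 0.25, limma adjusted p = 0.0637; without WT library 3 limma adjusted p = 0.0192). Leaving out mutant RGC library 3 or non-RGC library 1 ended the former call (limma adjusted p = 0.0530 and 0.0580). Cdh23 and Pcdh15 form the tip link of inner ear hair cells and are found in photoreceptors. Cdh23 (chromosome 10, 60302748 to 60696513) had 54.1 ± 25.1 in WT RGC, 21.4 ± 2.45 in mutant RGC and 7.45 ± 7.1 in non-RGC, with no overlap in either comparison and no call (log2 -1.14, SE 0.42, limma adjusted p = 0.0811 between genotypes, and log2 -1.76, SE 0.62, limma adjusted p = 0.0972 between fractions). It was called without WT library 3 between genotypes (log2 -1.60, limma adjusted p = 0.00547) and without non-RGC library 2 between fractions (log2 -2.42, limma adjusted p = 0.0391). Pcdh15 (chromosome 10, 73096277 to 74649831) had 658, 754 and 572 in WT RGC, 1344, 619 and 694 in mutant RGC and 848, 819 and 998 in non-RGC. Mutant RGC library 1 was the highest and the others of its group were among the lowest. Neither comparison was called (log2 0.38, SE 0.28, limma adjusted p = 0.329 between genotypes, and log2 0.09, SE 0.26, limma adjusted p = 0.856 between fractions). Without mutant RGC library 1, Pcdh15 was higher in non-RGC (log2 0.42, limma adjusted p = 0.0322). That library also had the highest sum of 18 photoreceptor markers among the RGC libraries, 24728 against 11507 to 17357 in the other 5. This was not particular to photoreceptor markers. Among the RGC libraries it also had the highest sums of progenitor and Mueller glia, amacrine and horizontal cell, and microglia markers. The same held for endothelial, pericyte, astrocyte, pigment epithelium and lens markers, but not for ganglion cell, proliferation and immediate early genes. The part of these cell types in the Pcdh15 level was not tested. Cdh16, the kidney-specific cadherin, stayed between 8.33 and 15.4, Cdh17, of intestine, between 0 and 2.91, and Cdh26, of epithelia, between 4.84 and 17.3 normalised counts over the 9 libraries.

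All 3 delta-1 protocadherins among the members were lower in non-RGC, and 1 of them also fell between genotypes. Pcdh1, a widely expressed adhesion protein, had 2882, 2912 and 1716 in WT RGC, 1287, 1546 and 1429.9 in mutant RGC and 569, 629.5 and 583 in non-RGC. The groups did not overlap, and WT library 3 was the nearest of its group to the mutant RGC. Pcdh1 fell between genotypes (log2 -0.75, SE 0.21, limma adjusted p = 0.0455), by 0.99 without WT library 3, a call not made without a filter on low values or in the authors' deposited table (adjusted p = 0.0565). It was lower in non-RGC (log2 -1.26, SE 0.09, limma adjusted p = 0.00414), a 2.39-fold difference with an adjusted p of at most 0.0365 without any 1 library. Pcdh7 (chromosome 5, 57716145 to 58133236) had 1851, 2125 and 1403 in WT RGC, 842, 1256 and 1348 in mutant RGC and 620.4, 757 and 551 in non-RGC. The groups did not overlap, with mutant RGC library 1 nearest to the non-RGC. It was lower in non-RGC (log2 -0.82, SE 0.20, limma adjusted p = 0.0331, with 0.0526 in the authors' deposited table) and did not pass between genotypes (log2 -0.62, SE 0.23, limma adjusted p = 0.0817). Pcdh9 (chromosome 14, 93013700 to 93892834) had 1224, 1305 and 793 in WT RGC, 558, 769 and 771 in mutant RGC and 487, 478 and 341 in non-RGC. WT library 3 lay close to the highest mutant RGC libraries, with overlap on the scale of the 6 libraries, and mutant RGC library 1 was just above the non-RGC. It was lower in non-RGC (log2 -0.69, SE 0.19, limma adjusted p = 0.0466, with 0.0514 in the authors' deposited table) and did not pass between genotypes (log2 -0.61, SE 0.22, limma adjusted p = 0.0810). Between genotypes, the limma adjusted p without WT library 3 was 0.0435 for Pcdh7 and 0.0172 for Pcdh9. The Pcdh7 and Pcdh9 calls between fractions were lost without any 1 library other than mutant RGC library 1, with a highest limma adjusted p of 0.116 and 0.156. The Pcdh9 call was also lost under upper-quartile and total-count scaling, voom weights and 1 fit over the 9 libraries.

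Of the delta-2 protocadherins, Pcdh10 was lower in both comparisons, Pcdh19 was lower in non-RGC alone, and Pcdh17 passed in neither. Their upstream sequences are shown because these 3 related genes had like motifs and unlike calls, with that of Cdh20, the member that rose, for contrast. The sequences are the bases before the annotated start of each gene in the RefSeq promoter table (GRCm38.p6), 5′ to 3′ on the gene's strand, and capitals mark GGGCGG, with its reverse complement CCGCCC, or else the letters CCAATC, with their reverse complement GATTGG. Pcdh10 is chr3:45378148-45378397 on the + strand, Pcdh17 is chr14:84443313-84443562 on the + strand, Pcdh19 is chrX:133689045-133689243 on the - strand and Cdh20 is chr1:104768270-104768339 on the + strand.
Pcdh10: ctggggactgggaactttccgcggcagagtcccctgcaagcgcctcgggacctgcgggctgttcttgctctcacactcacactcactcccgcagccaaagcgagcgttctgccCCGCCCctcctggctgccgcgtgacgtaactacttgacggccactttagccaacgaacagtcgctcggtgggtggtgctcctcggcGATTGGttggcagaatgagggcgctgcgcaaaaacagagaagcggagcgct
Pcdh17: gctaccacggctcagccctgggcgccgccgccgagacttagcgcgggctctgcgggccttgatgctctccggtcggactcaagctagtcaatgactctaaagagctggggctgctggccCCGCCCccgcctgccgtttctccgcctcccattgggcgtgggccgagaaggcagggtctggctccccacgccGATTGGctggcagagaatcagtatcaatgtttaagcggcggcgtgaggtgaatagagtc
Pcdh19: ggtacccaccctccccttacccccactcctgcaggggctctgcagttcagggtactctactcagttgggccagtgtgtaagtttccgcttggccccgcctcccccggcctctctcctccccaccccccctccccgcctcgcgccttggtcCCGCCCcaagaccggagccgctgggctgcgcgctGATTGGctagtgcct
Cdh20: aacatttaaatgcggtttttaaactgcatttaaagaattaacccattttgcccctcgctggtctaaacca

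The 3 protocadherins were chosen for their like motifs, so that likeness says nothing about the delta-2 group. Each of their sequences held 1 of each motif, as CCGCCC followed downstream by GATTGG. They had 22 CpG dinucleotides in the 250 bases of Pcdh10, 21 in the 250 of Pcdh17 and 11 in the 199 of Pcdh19. Of the other delta-2 members, the Pcdh18 window held both motifs, with GGGCGG on the gene's strand, and the Pcdh8 window held neither. The Cdh20 sequence of 70 bases held neither motif and 2 CpG, and its whole 250-base window held neither motif; the sequences of Pcdh19 and Cdh20 are shorter because they stop where the annotated gene begins. Promoter entries were found for 22 of the 34 members, and 27025 genes had one. Shares and medians use the first entry of each gene. Each window is the 250 bases before the start of the promoter entry, which can lie inside the annotated gene. The windows of Cdh6, Cdh7, Cdh8, Cdh9, Cdh10, Cdh12, Cdh18, Cdh24, Pcdh7, Pcdh9 and Pcdh15 lay wholly inside it. Those of Cdh20, Cdh22, Cdh23, Pcdh18 and Pcdh19 lay partly inside it. In these windows, either strand counted, GGGCGG, the core of the Sp1 motif, was present in 40.9% of the 22 members and 32.9% of all genes. CCAATC, the motif known as an NF-Y site and searched for after the sequences were seen, was present in 36.4% and 15.1%, among them Pcdh9, Pcdh10, Pcdh17, Pcdh18 and Pcdh19. The E-box form CAGGTG, and its relative CAGATG, bound by repressors of Cdh1 and by proneural factors, were present in 9.09% and 4.55% of the members against 17.1% and 14.5% of all genes. TAATCC, the photoreceptor homeobox motif, was present in 9.09% against 6.38%. None of the 5 motifs contains another. The members' windows had a median of 9 CpG, against 6 over all genes. A match describes these letters only.

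Pcdh10 (chromosome 3, 45378398 to 45434579), which recruits the WAVE complex at growing axons, had 3369.9, 3534 and 2108 normalised counts in WT RGC, 1346, 1812 and 1811 in mutant RGC and 1072, 1083 and 959 in non-RGC. The groups did not overlap, and WT library 3 and mutant RGC library 1 were the lowest of theirs. Pcdh10 fell between genotypes (log2 -0.80, SE 0.23, limma adjusted p = 0.0444), by 1.03 without WT library 3, and was lower in non-RGC (log2 -0.66, SE 0.13, limma adjusted p = 0.0181). Leaving out mutant RGC library 2 or 3 or non-RGC library 1 or 2 ended the latter call, with a highest limma adjusted p of 0.0715. Pcdh19 (chromosome X, 133582860 to 133689044), a gene mutated in a familial epilepsy, had 2182, 2461 and 1389 in WT RGC, 1143, 1468 and 1268 in mutant RGC and 614, 692 and 551 in non-RGC. WT library 3 lay within the mutant RGC range, and every non-RGC library was below every RGC library. Pcdh19 was lower in non-RGC (log2 -1.06, SE 0.13, limma adjusted p = 0.00679), a 2.09-fold difference with an adjusted p of at most 0.0452 without any 1 library, and did not pass between genotypes (log2 -0.57, SE 0.22, limma adjusted p = 0.0913). Without WT library 3 its adjusted p between genotypes was 0.00893. Pcdh17 (chromosome 14, 84443563 to 84537565), which acts at synapses and along axons, had 2038, 2223 and 1429 in WT RGC, 1286, 2036 and 2021 in mutant RGC and 1571, 1584 and 924 in non-RGC. The groups overlapped in both comparisons, and non-RGC library 3 was the lowest (log2 -0.06, SE 0.24, limma adjusted p = 0.865 between genotypes, and log2 -0.40, SE 0.26, limma adjusted p = 0.343 between fractions). Pcdh8 (chromosome 14, 79766772 to 79771312), known as arcadlin at synapses, had 2117, 2139.7 and 1484 in WT RGC, 682, 1215 and 1306 in mutant RGC and 807, 832 and 628 in non-RGC. WT libraries were above all mutant RGC libraries, but limma did not call the difference (log2 -0.84, SE 0.28, limma adjusted p = 0.0639). The authors' deposited table gives an adjusted p of 0.0402 for it, and limma 0.0457 without WT library 3. Between fractions mutant RGC library 1 lay among the non-RGC libraries (log2 -0.45, SE 0.25, limma adjusted p = 0.271).

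Pcdh18 and Pcdh20 were not called in either comparison. Pcdh18, of the delta-2 group, had 553 ± 155 (SD, n = 3) in WT RGC, 459 ± 88.9 in mutant RGC and 379 ± 13.7 in non-RGC, and every non-RGC library lay below every mutant RGC library (log2 -0.26, SE 0.13, limma adjusted p = 0.222). Pcdh20, a protocadherin of neurons, had 115 ± 39.3, 66.1 ± 24.1 and 44.4 ± 10.2 in the same order and overlapped in both comparisons (log2 -0.76, SE 0.40, limma adjusted p = 0.180 between genotypes, and log2 -0.52, SE 0.35, limma adjusted p = 0.364 between fractions). By class, the median log2 fold change between genotypes was -0.19 for class I, -0.46 for class II, -0.76 for the other cadherins, -0.62 for delta-1, -0.57 for delta-2 and -0.19 for the other protocadherins. Between fractions the medians were -0.18, -0.74, -0.64, -0.82, -0.45 and -0.52. Each class thus had a median below that of all genes in both comparisons, as a description over the 3 to 12 members tested in a class.

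**Figure D4:**
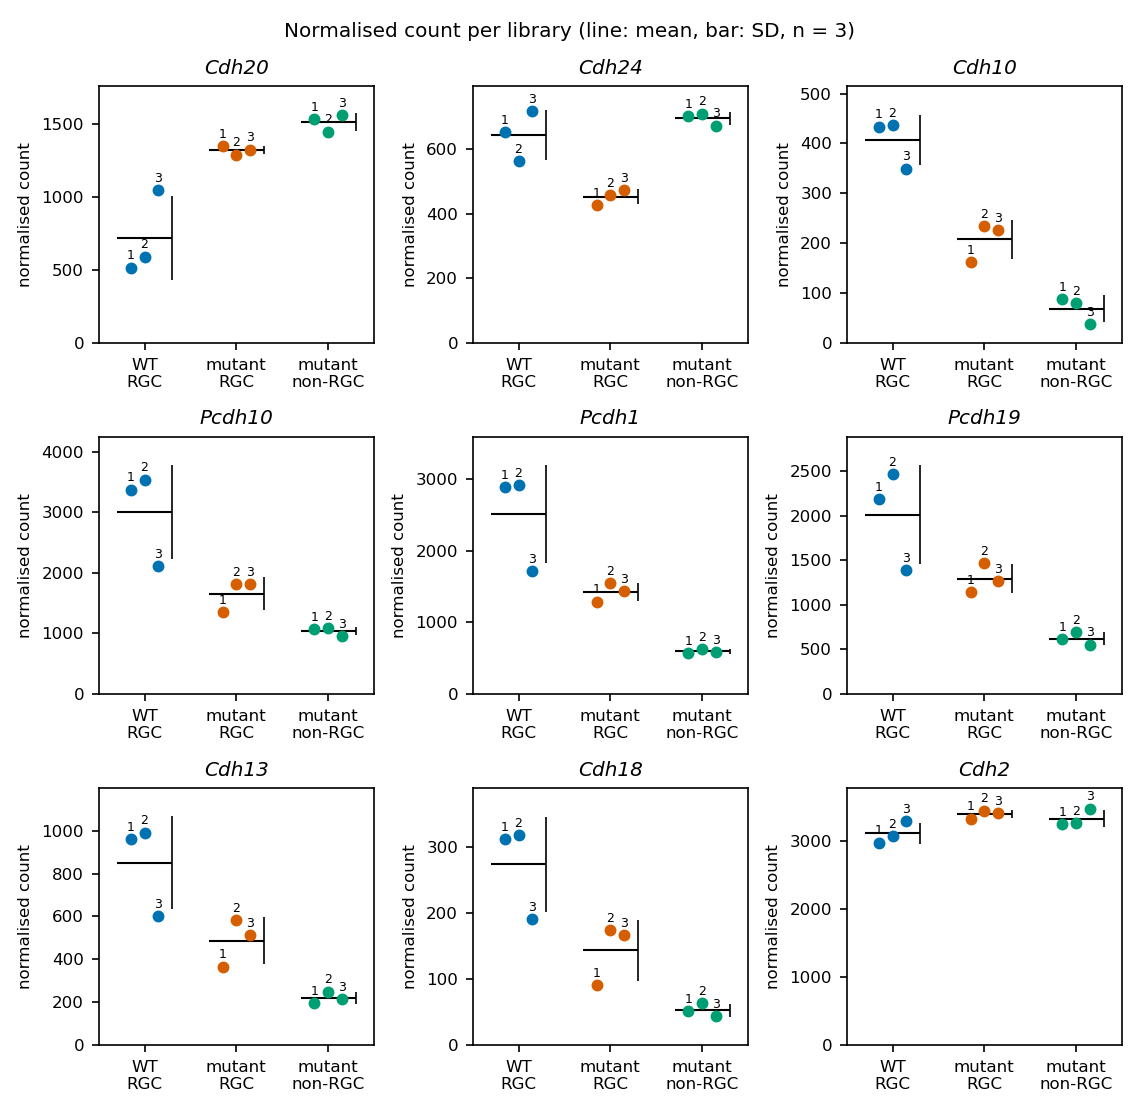
Normalised counts of 9 genes in the 9 libraries, each point a library with its number, the horizontal line the group mean and the bar the SD (n = 3), with axes from 0. Cdh20 steps up from WT RGC to non-RGC, Cdh24 is lowest in mutant RGC, Cdh10, Pcdh10, Pcdh1, Pcdh19, Cdh13 and Cdh18 step down, and Cdh2 stays near 3274 counts.

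Partner genes of cadherins were counted in 8 lists of 5 to 13 tested genes, as a description. Beside their counts stand 13.7% of all genes higher and 12.3% lower between genotypes, and 5.07% higher and 12% lower between fractions. These shares hold for all 8 lists, here and below. Among 13 tested catenins and junction adaptors, which couple cadherins to actin, 2 rose and 1 fell in mutant RGC (median log2 -0.03). The alpha-catenin genes moved apart. Ctnna1, the alpha-E-catenin gene, rose from a mean of 1436 to 2259 (log2 0.70, SE 0.13, limma adjusted p = 0.0244), and Ctnna2, its neuronal relative, fell from 2887 to 1814 normalised counts (log2 -0.65, SE 0.18, limma adjusted p = 0.0443). Ctnnd1, the delta-catenin that keeps cadherins at the surface, rose as well (log2 0.31, SE 0.07, limma adjusted p = 0.0304), while the beta-catenin gene Ctnnb1 was at 4655 and 4585 (log2 0.01, SE 0.07, limma adjusted p = 0.899). Between fractions 2 of the 13 were higher and 3 lower in non-RGC (median 0.0085). Jup, the plakoglobin gene, was lower (log2 -0.95, SE 0.17, limma adjusted p = 0.0131), as were Ctnna2 (log2 -0.55, SE 0.15, limma adjusted p = 0.0447) and the vinculin gene Vcl (log2 -0.51, SE 0.13, limma adjusted p = 0.0410), whereas Ctnnal1 (log2 0.45, SE 0.10, limma adjusted p = 0.0248) and Plekha7 (log2 0.48, SE 0.11, limma adjusted p = 0.0285) were higher. Of 9 WAVE complex genes, Wasf2 rose between genotypes (log2 0.56, SE 0.15, limma adjusted p = 0.0388; list median -0.05), and Cyfip2 and Abi2 were lower in non-RGC (log2 -0.48, SE 0.10, limma adjusted p = 0.0214, and log2 -0.35, SE 0.07, limma adjusted p = 0.0211; list median -0.13).

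Related cadherin superfamily genes included calls in both directions. Of 7 giant and seven-pass cadherins, Fat1 and Celsr1, expressed in neural precursors, rose in mutant RGC from 2674 to 4821 and from 143 to 313 (log2 0.89, SE 0.17, limma adjusted p = 0.0250 for Fat1, and log2 1.20, SE 0.24, limma adjusted p = 0.0259 for Celsr1), and Celsr3, which guides axons, fell (log2 -0.49, SE 0.15, limma adjusted p = 0.0491). The list median was 0.18. Dchs1 alone was lower in non-RGC (log2 -0.45, SE 0.08, limma adjusted p = 0.0118; list median -0.14). Of 6 calsyntenins and cadherin-related genes, the synaptic Clstn3 and the delta-1 protocadherin Pcdh11x fell between genotypes (log2 -0.66, SE 0.16, limma adjusted p = 0.0328, and log2 -1.02, SE 0.26, limma adjusted p = 0.0364; list median -0.47). Both were lower again in non-RGC (log2 -0.86, SE 0.11, limma adjusted p = 0.00764, and log2 -1.65, SE 0.22, limma adjusted p = 0.00786), with Clstn2 as the third (log2 -2.66, SE 0.69, limma adjusted p = 0.0385; list median -0.75). Of 5 nectins, adhesion molecules that work beside cadherins, Pvrl3 rose (log2 1.04, SE 0.20, limma adjusted p = 0.0251) and Pvrl1 and Pvrl2 fell slightly (log2 -0.28, SE 0.08, limma adjusted p = 0.0409, and log2 -0.25, SE 0.07, limma adjusted p = 0.0497; list median -0.28). Between fractions Pvrl1 came nearest to a call (log2 -0.23, SE 0.07, limma adjusted p = 0.0505; list median -0.23).

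Of 8 Usher partners of the tip link, Gpr98 and Clrn1 rose between genotypes (log2 1.07, SE 0.25, limma adjusted p = 0.0307, and log2 1.62, SE 0.21, limma adjusted p = 0.0215) and Pdzd7 fell (log2 -1.17, SE 0.21, limma adjusted p = 0.0244; list median 0.13), while Whrn came nearest to a call between fractions (log2 0.31, SE 0.09, limma adjusted p = 0.0552; list median 0.20). Among 10 proteases that cleave cadherins, Adam17 rose between genotypes (log2 0.55, SE 0.16, limma adjusted p = 0.0463; list median 0.11) and Adam10 was lower in non-RGC (log2 -0.24, SE 0.06, limma adjusted p = 0.0317; list median -0.05). Of 5 transcription factors known to repress Cdh1, Zeb2 and Zeb1 rose between genotypes (log2 0.68, SE 0.13, limma adjusted p = 0.0251, and log2 0.42, SE 0.10, limma adjusted p = 0.0313; list median 0.33), and Tcf3 was higher in non-RGC (log2 0.25, SE 0.05, limma adjusted p = 0.0173; list median 0.03). Cdh1 itself, at a mean of 47.6 in WT RGC, 68.3 in mutant RGC and 57.3 in non-RGC, was not called. Without WT library 1 or 2, or mutant RGC library 2 or 3, 0 genes of the 8 lists were called between genotypes by limma. Over all genes, at most 8 were then called higher and at most 3 lower. Without WT library 3, 4 catenins and adaptors, 4 nectins and 3 calsyntenin-related genes were lower. In that fit 20.2% of all genes were lower and 22.1% higher, and the higher calls of the lists are not given here. Between fractions, with 1 library left out at a time, the count of lower calsyntenin-related genes was 2 or 3. The lower calls over all genes then ranged from 394 of 15173 to 2361 of 15065.

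The summed ganglion cell markers were highest in WT RGC and lowest in non-RGC. The members called lower in either comparison, other than Cdh24, had means in that order. Choosing members by these calls fixes part of that order, so the likeness is a description only. Of the 20 markers, 10 fell between genotypes and 14 were lower in non-RGC, beside 12.3% and 12% of all genes. Their median log2 fold changes were -0.79 and -2.11, beside -0.47 and -0.48 for the members. Proliferation genes moved the other way (medians 0.98 and 0.25). Of these 21 genes, 20 were higher in mutant RGC and 12 higher in non-RGC, beside 13.7% and 5.07% of all genes. Cdh20 and Cdh22 had the same order of libraries within WT RGC as these genes, with WT library 3 highest. This order was not particular to proliferation genes. The sums of progenitor and Mueller glia, photoreceptor, amacrine and horizontal cell, microglia, endothelial, pigment epithelium and lens markers also had it. Those of ganglion cell, pericyte, astrocyte and immediate early genes did not. All 12 microglia markers were lower in non-RGC (median -6.19), and their median between genotypes was -0.28. The part of these cell types in the members' differences was not tested. Many members are long genes. In the comparison of fractions, 27.2% of the 2062 genes of at least 100 kb were lower in non-RGC against 9.87% of the 11795 shorter ones, and 8 of 18 long members against 2 of 14 short ones were lower. Between genotypes 16.2% of 2077 long and 12% of 11905 short genes fell, with 1 of 18 long and 3 of 13 short members among them. Gene length thus moved with the share of lower calls between fractions, for all genes and for the members, and its part was not tested.

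**Figure D5:**
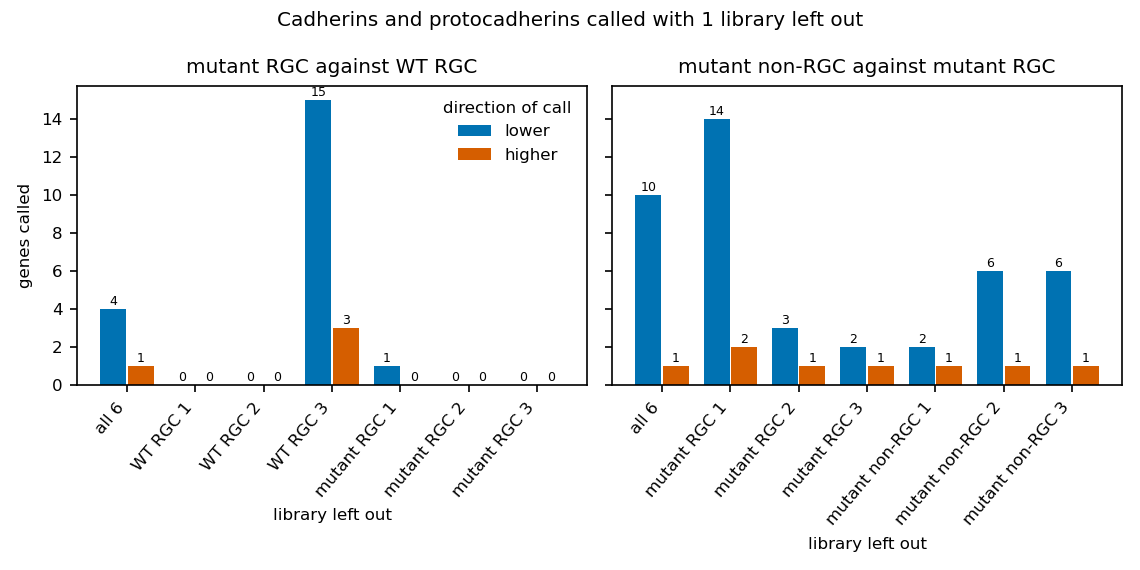
Bars give the number of cadherins and protocadherins called lower or higher by limma (adjusted p under 0.05) with all 6 libraries and with each library left out, mutant RGC against WT RGC on the left and mutant non-RGC against mutant RGC on the right. On the left the count of lower genes goes from 4 to 15 without WT library 3 and to 0 or 1 without any other, and on the right it ranges from 2 to 14. Over all genes, lower calls with 1 library left out ranged from 1 to 3096 on the left and from 394 to 2361 on the right.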

How the data were processed

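Members, classes and gene lists were chosen with earlier results of these data known. Per the labels' protocols and the series' design text, poly(A) RNA was read from bead-sorted fractions. Per the submitters' processing notes, the authors used STAR 2.3, featureCounts, DESeq and FastQC on mm10, and no strand setting is given, so reads of a gene and its antisense partner cannot be told apart. The file names state sorted, primary, deduplicated alignments.

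The authors deposited 2 tables of 38720 genes. Per the file headers, they hold the mean normalised signal of each condition, its fold change as a ratio, the log2 fold change, and the p-value and adjusted p-value of the authors' test. A deposited condition mean sums 3 whole read counts, each divided by 3 times a size factor, so the reads of each library were recovered from it. A solution needed a whole number within 1e-09 and a next best solution more than 10 times further off. Of the genes above 0, at least 99.979% were recovered, and the 23953 mutant RGC genes compared between the tables had identical reads. Adcy1, Ank2, Dync1h1, Map1b and Reln were not recovered in at least 1 condition. The second table's first condition is the mutant RGC, since 14765 genes were at 0 in both and none in only 1.

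Models in limma 3.58.1 (R 4.3.3), with the variance trend, used log2(normalised count + 1) of the 6 libraries of a comparison, for genes with a mean of at least 10, with Benjamini-Hochberg adjustment over all genes tested. The scripts were tested on simulated data. Fold changes of low genes are understated by the pseudocount of 1. Levels on the scale of all 9 libraries differ from those of the fits by a log2 shift of -0.034 between genotypes and 0.0011 between fractions. Genes named with a value in every library are those called in either comparison and the 10 with the highest mean. Cdh5, Pcdh12 and Pcdh15 were added after their values were seen. Alternatives were pseudocounts of 0.5 and 5, no filter or a mean of at least 50, upper-quartile and total-count scaling, voom weights, 1 fit over the 9 libraries, the authors' DESeq test and leaving out each library. Leaving out 2 libraries together was chosen after seeing the data.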

Additional observations from a re-analysis of the deposited data

How the results depend on the processing

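Members that rose in mutant RGC numbered 1 in the fit reported, and from 0 to 4 with libraries left out. They numbered 2 with a mean of at least 50, upper-quartile scaling, total-count scaling and voom weights. The count was also 2 in 1 fit over the 9 libraries and the authors' DESeq test. Over all genes, the rises were 2092 of 15277 in the fit reported and 2109 of 12761 with a mean of at least 50. They were 2013 of 15292 under upper-quartile scaling, 2400 of 15291 under total-count scaling and 2202 of 15277 with voom weights. They were 2390 of 15265 in 1 fit over the 9 libraries and 1381 of 25338 in the authors' test. With 1 library left out they ran from 2 of 15326 to 3383 of 15305. Members that fell numbered 4, and from 0 to 19 with libraries left out. In 1 fit over the 9 libraries 12 fell, beside 18.4% of all genes. The 19 (beside 30.3% of all genes) is without WT library 3 and mutant RGC library 1 together, a setting chosen after seeing the data. With 1 library left out, the falls over all genes ran from 1 of 15326 to 3096 of 15305. Members higher in non-RGC numbered 1, 2 under upper-quartile and total-count scaling, and from 1 to 3 with libraries left out. Over all genes, these calls were 1030 of 15170 under upper-quartile and 1465 of 15170 under total-count scaling. With 1 library left out they ran from 44 of 15173 to 1031 of 15267. Members lower in non-RGC numbered 10, 9 under upper-quartile and total-count scaling, and 8 with voom weights and in 1 fit over the 9 libraries. They numbered 7 in the authors' DESeq test and from 2 to 16 with libraries left out. The 16 (beside 24.1% of all genes) is without mutant RGC library 1 and non-RGC library 3 together. Over all genes, lower calls were 1820 of 15178 in the fit reported, 1744 of 15170 under upper-quartile and 1598 of 15170 under total-count scaling. They were 1517 of 15178 with voom weights, 1852 of 15265 in 1 fit over the 9 libraries and 1340 of 25252 in the authors' test. With 1 library left out they ran from 394 of 15173 to 2361 of 15065. Without mutant RGC library 1, all genes tested between fractions gave 2361 lower and 964 higher, against 1820 and 770 in the fit reported.

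Of the log2 fold changes of single genes under alternatives, 826 kept direction and side of the threshold, 68 lost the call, 63 gained it and 37 changed sign, all 37 in genes without a call, and the cause was not tested. Pcdh12 between genotypes was 0.12 with a pseudocount of 5 and 1.18 in the authors' table. Between fractions, Cdh2 was 0.036 under total-count scaling, Cdh11 was 0.015 under upper-quartile and 0.054 under total-count scaling, and Cdh15 was 0.019 and Cdh9 -0.0057 in the authors' table. With libraries left out, the range between genotypes was -0.99 to 1.42 for Cdh5, -0.66 to 0.30 for Cdh9, -0.024 to 0.083 for Cdh11, -0.38 to 0.084 for Cdh16, -0.25 to 0.17 for Pcdh17, -0.83 to 0.71 for Pcdh12 and -0.049 to 0.58 for Pcdh15. Between fractions it was -0.56 to 0.044 for Cdh1, -0.36 to 0.12 for Cdh3, -1.04 to 0.11 for Cdh15, -0.41 to 0.47 for Cdh9, -0.11 to 0.057 for Cdh11, -0.45 to 0.38 for Cdh26, -1.50 to 0.50 for Pcdh12 and -0.12 to 0.42 for Pcdh15.

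No paired analysis was possible because the recovered libraries carry no sample numbers. With 3 libraries a group, counting error and library spread limit Cdh9, Cdh16, Cdh17, Cdh19, Cdh26 and Pcdh12, whose means lay near or under the filter of 10.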

Other observations

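Members that lie on the same chromosome did not share 1 pattern. On chromosome 8, Cdh8, Cdh11, Cdh5, Cdh16, Cdh3, Cdh1, Cdh13 and Cdh15 include 1 call, the lower Cdh13 in non-RGC cells. On chromosome 14, Cdh24 was higher and Pcdh9 lower in non-RGC cells, and Pcdh8, Pcdh17 and Pcdh20 had no call. On chromosome 1, Cdh20 rose in mutant RGC, whereas its neighbour Cdh7 had means of 262.5 in WT RGC and 125.0 in mutant RGC without a call.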
